A study of Mus musculus with 24 samples.

Results

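The comparison set 3 arrays of Per2-/- hearts that were reperfused for 60 min after an ischemia of 30 min (I30R60) against 3 arrays of Per2-/- hearts taken at the end of that ischemia (I30), and so asked what reperfusion added to ischemia in hearts without the clock gene Per2. The 6 arrays were chosen by their labels out of 24. The arrays carried left ventricular RNA of male mice, for which the methods give an age of 12 to 16 weeks, the strain is given as BL6C57, and all mice were anesthetized, catheterized and had the heart flushed with cold saline before it was taken. The deletion is present in the whole animal and not in heart muscle alone. Per2-/- sham hearts, wildtype I30R60 hearts and wildtype I30 hearts, with 3 arrays each, served for orientation. The rest of the 24 arrays were wildtype sham hearts and hearts of both genotypes after ischemic preconditioning, which is repeated short ischemia and reperfusion. They are not compared here, but they entered the shared estimate of the spread behind the limma p-values. The sample titles call the sham hearts untreated controls, and the authors describe them as sham operated. I30R60 hearts were taken 90 minutes after the coronary artery was closed and I30 hearts after 30 minutes. No array had 90 minutes without reperfusion, so that reperfusion and the added time cannot be told apart.

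When blood returns to ischemic heart muscle, oxygen radicals, calcium load and signals from dying cells act on myocytes, endothelium and resident leukocytes. Immediate early genes such as Fos and Jun, which need no new protein for their transcription, answer first. NF-kB is held in the cytoplasm by IkB proteins until a signal degrades them, and it then switches on cytokines, chemokines and endothelial adhesion molecules along with its own inhibitors. IL-6 acts through JAK kinases and STAT3, whose target Socs3 closes the loop. Per2 is a repressor of the circadian clock, in which CLOCK and BMAL1 bind E-boxes and drive the Per and Cry genes.

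For orientation, the upstream sequences of 7 genes that rose are shown, each with 1 of the motifs described further on in capitals. They were picked after the values were seen, as 1 or more examples of each of 4 motifs. They are 80 bases long, 5′ to 3′ on the strand of the gene, end at or before the base upstream of the annotated start, and come from RefSeq on GRCm38.p6. The capitals mark the NF-kB motif in Il6 (chr5:30013034-30013113, plus strand), Cxcl10 (chr5:92348943-92349022, minus strand), Tnfaip3 (chr10:19015411-19015490, minus strand) and Nfkbia (chr12:55492648-55492727, minus strand), the AP-1 motif TGANTCA in Sele (chr1:164048131-164048210, plus strand), the STAT motif TTCNNNGAA in Socs3 (chr11:117969471-117969550, minus strand), and the E-box CACGTG, present at 2 places, in Ciart (chr3:95882229-95882308, minus strand).
Il6: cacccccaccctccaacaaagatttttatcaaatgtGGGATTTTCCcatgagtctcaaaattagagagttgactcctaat
Cxcl10: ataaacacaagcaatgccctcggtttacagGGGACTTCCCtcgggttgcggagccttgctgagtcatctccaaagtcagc
Tnfaip3: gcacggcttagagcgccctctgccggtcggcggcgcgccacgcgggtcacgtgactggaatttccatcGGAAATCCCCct
Nfkbia: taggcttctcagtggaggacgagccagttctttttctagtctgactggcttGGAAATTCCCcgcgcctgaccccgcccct
Sele: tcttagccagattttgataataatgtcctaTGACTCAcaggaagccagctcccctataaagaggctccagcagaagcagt
Socs3: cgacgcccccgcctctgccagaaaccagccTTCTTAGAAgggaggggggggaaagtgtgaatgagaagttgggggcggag
Ciart: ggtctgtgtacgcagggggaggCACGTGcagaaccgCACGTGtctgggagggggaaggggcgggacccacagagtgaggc

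The microRNA genes that rose most lie together on mouse chromosome 13. For these and the other microRNA genes below, 1 mature product each is shown, with the seed, bases 2 to 8, in capitals. Further products of the same genes are left out. For Mir23b the sequences used here held miR-23b-5p only, and the seed shown is that of this product. Mir23b, Mir27b and Mir24-1 lie within 781 bases (chr13:63300492-63301272, plus strand, GRCm38.p6). Mir27a, on chromosome 8, gives a product with the same seed as that of Mir27b. Mir30a and Mir30c-2, both on chromosome 1, share a seed as well. Mir27a and Mir30c-2 were picked after their values were seen.
miR-24-3p: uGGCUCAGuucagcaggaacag
miR-27b-3p: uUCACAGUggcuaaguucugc
miR-27a-3p: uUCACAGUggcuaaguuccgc
miR-23b-5p: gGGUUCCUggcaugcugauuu
miR-30a-5p: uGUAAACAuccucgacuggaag
miR-30c-5p: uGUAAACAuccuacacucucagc

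Adding reperfusion raised far more transcripts strongly than it lowered. Of 18820 genes tested, 694 were higher in I30R60 than in I30 hearts (3.69% of all genes) and 322 were lower (1.71%), which makes 1016 changed genes (5.4%) at an adjusted p under 0.05 in limma. A gene is said to rise or fall only where it passed this test. At least 2-fold rises numbered 205 and at least 2-fold falls 10. The size of a change is given on the log2 scale of the deposited intensities, where 1 unit is a 2-fold difference, and the median over all genes was -0.04. The count depended on single arrays: it was 620 without I30 replicate 2 and 635 without I30R60 replicate 1. With each array scaled to a common interquartile range the share of rises among the called genes was 55.7% (554 rises and 440 falls), in place of 68.3%. The plot of differences against p shows the long arm of rises.

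**Figure D1:**
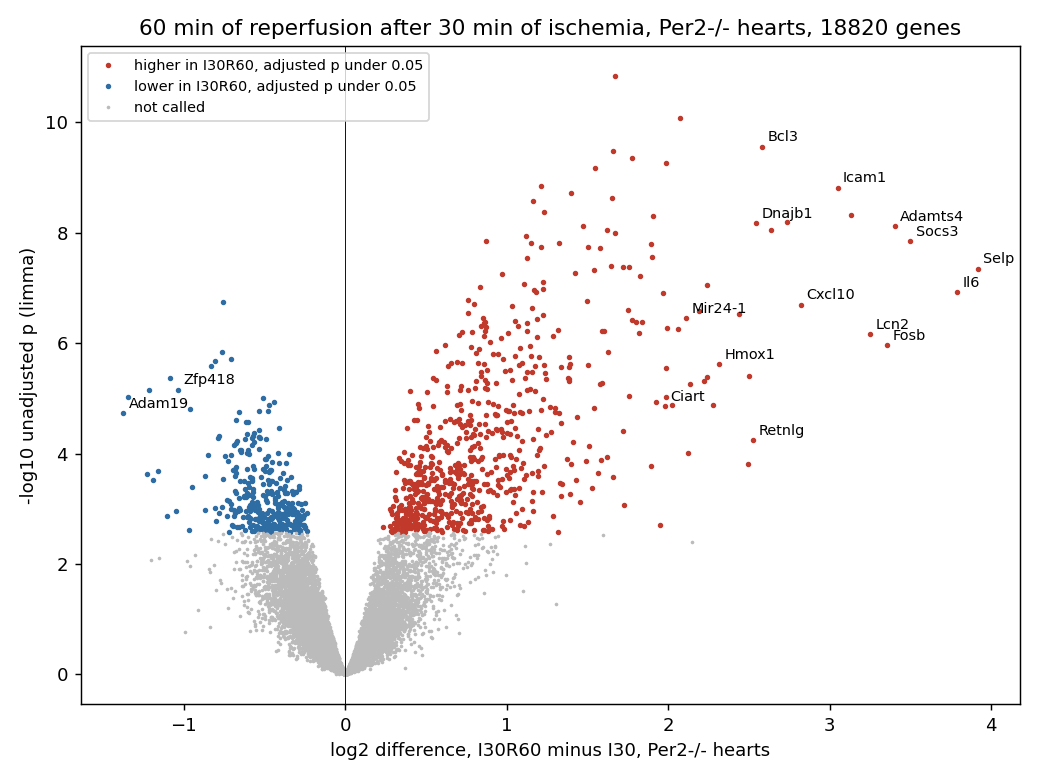
Log2 difference between I30R60 and I30 in Per2-/- hearts (horizontal axis) against -log10 of the unadjusted limma p (vertical axis), 1 point per gene, for 18820 genes. Red points are the 694 genes that rose and blue points the 322 that fell. Rises reach 3.92 log2 units at Selp, and falls end at -1.37 at Adam19.

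Most of the genes that rose were also above their level in Per2-/- sham hearts. The I30R60 mean lay above the range of the 3 sham arrays for 671 of the 694 genes that rose. The I30 mean of the same genes lay within the sham range for 379, below it for 258 and above it for 57. Among the 322 genes that fell, the I30R60 mean lay below the sham range for 299, and the I30 mean lay above it for 136 and within it for 152. These are positions of means against a range of 3 arrays, without a test. The genes were called on the same I30R60 and I30 values, so that the positions follow in part from that choice. The share over all genes was not counted.

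The Per2 probe set gave a signal in Per2-/- hearts. Its log2 intensity was 5.58, 5.99 and 6.25 in I30R60 hearts, against 5.30, 4.94 and 5.04 in I30 hearts and a mean of 5.66 in sham hearts. The I30R60 values lay above all I30 values, and the difference of 0.85 ± 0.27 (SE) missed the threshold (adjusted p = 0.0748). Whether the probe set lies in the deleted part of the gene is not given in the sources used here, so that it does not check the genotype labels.

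Endothelial adhesion genes gave the largest rise of all genes. Selp encodes P-selectin, on which leukocytes first roll along the vessel wall. It measured 8.08, 7.32 and 7.12 in I30R60 hearts and 3.60, 3.55 and 3.61 in I30 hearts. The groups lay over 3 log2 units apart, and the difference was 3.92 ± 0.46 (adjusted p = 2.26e-05), a 15.1-fold rise. Icam1, the ligand on which leukocytes then arrest, measured 9.50, 9.13 and 8.35 in I30R60 hearts and 6.13, 5.76 and 5.93 in I30 hearts. It rose by 3.05 ± 0.29 (adjusted p = 3.2e-06), and its I30 mean was below the sham mean of 6.40. Sele, the E-selectin gene, stood at 7.71, 7.42 and 7.19 in I30R60 hearts and at 5.44, 4.97 and 4.42 in I30 hearts, a rise of 2.5 ± 0.40 (adjusted p = 0.000545). Thbd, the thrombomodulin gene of the anticoagulant endothelial surface, rose by 1.21 ± 0.11 (adjusted p = 3.2e-06). Vcam1, the ligand of leukocyte integrin alpha-4 beta-1, rose by 1.43, a call that was lost without I30 replicate 2 (adjusted p = 0.0574), I30R60 replicate 1 (0.0565) or I30R60 replicate 2 (0.0649). In the whole list of endothelial adhesion and activation genes, 7 of 19 rose and none fell, with a median of 0.20, and the count was 4 without I30 replicate 2. Among 12 markers of the endothelium as a cell type none rose, and Egfl7 and Kdr fell. Egfl7, a secreted vessel factor, measured 8.01, 8.40 and 8.53 in I30R60 hearts and 9.13, 8.67 and 8.93 in I30 hearts, a fall of 0.60 (adjusted p = 0.00508). Kdr, the main VEGF receptor, changed by -0.68 (adjusted p = 0.0302), and its call was lost without I30 replicate 1 or 2 (0.117 and 0.0705) or I30R60 replicate 1 or 2 (0.119 and 0.118).

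**Figure D2:**
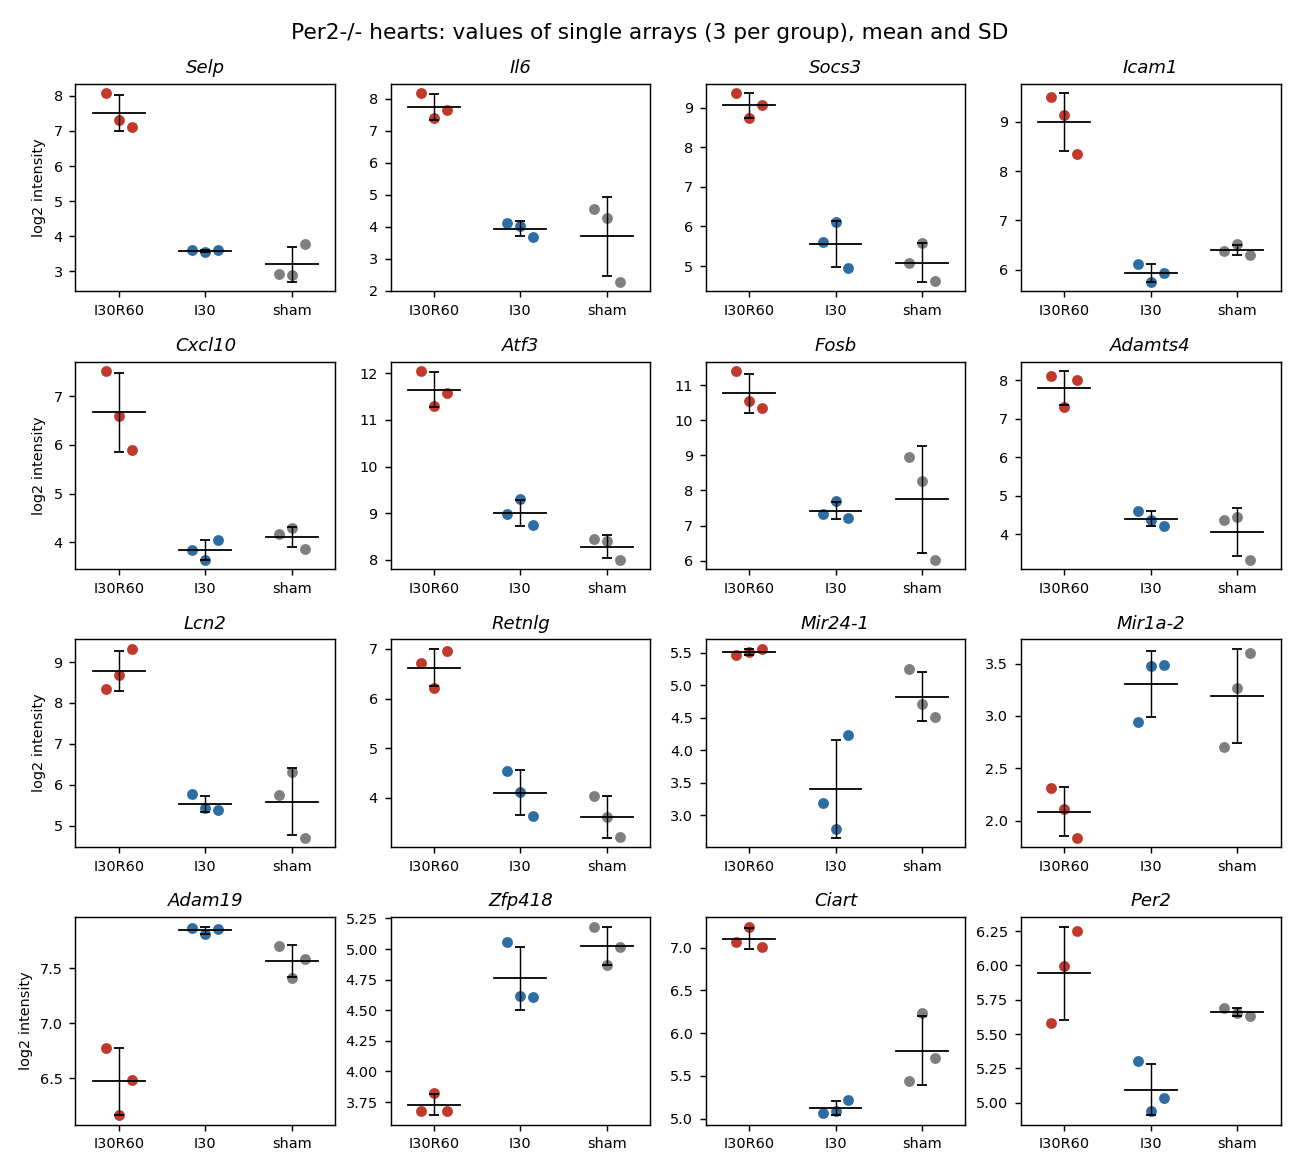
Log2 intensity of 16 genes in the single Per2-/- arrays (points), 3 arrays each of I30R60 (red), I30 (blue) and sham (grey) hearts, with the mean (line) and SD (bars). For Selp, Il6, Socs3, Icam1, Atf3 and Adamts4 all I30R60 arrays lie above all I30 and sham arrays. For Adam19, Zfp418 and Mir1a-2 they lie below.

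The IL-6 arm rose from ligand to feedback inhibitor. Il6 measured 8.18, 7.39 and 7.63 in I30R60 hearts and 4.13, 4.02 and 3.67 in I30 hearts. The I30 values lay within the range of the sham arrays, and the rise was 3.79 ± 0.47 (adjusted p = 4.6e-05), 13.8-fold. Socs3, the suppressor that STAT3 induces against JAK signalling, measured 9.36, 8.74 and 9.07 in I30R60 hearts and 5.6, 6.12 and 4.95 in I30 hearts, a rise of 3.50 ± 0.38 (adjusted p = 1.06e-05). Osmr, the receptor subunit for oncostatin M, rose by 1.43 (adjusted p = 2.6e-05). Pim1, a kinase gene induced by STAT proteins, rose by 1.06, Socs1 by 0.87 and Jak2 by 0.80. Jak2 was among the tightest genes, at 7.84, 7.80 and 7.85 in I30R60 hearts and 7.03, 7.04 and 7.03 in I30 hearts. In the list as a whole, 9 of 17 genes rose and none fell, with a median of 0.62. The shared receptor subunit Il6st, picked after its values were seen, was at a difference of 0.07 (adjusted p = 0.637).

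NF-kB subunits and their inhibitors rose together, 11 of 18 with none lower and a median of 0.74. Bcl3, an IkB-like partner of p50 and p52 in the nucleus, measured 8.47, 7.84 and 8.01 in I30R60 hearts and 5.56, 5.56 and 5.45 in I30 hearts. Its rise of 2.58 ± 0.22 had one of the smallest p values among the named genes (adjusted p = 1.53e-06). Tnfaip3 encodes A20, which removes ubiquitin chains from NF-kB signalling complexes, and stood at 8.03, 7.47 and 6.84 in I30R60 hearts and at 5.35, 5.01 and 5.27 in I30 hearts (2.24 ± 0.27, adjusted p = 3.82e-05). Birc3, an inhibitor of apoptosis and ubiquitin ligase in TNF signalling, rose by 1.55 ± 0.14 (adjusted p = 1.78e-06). The IkB genes Nfkbie and Nfkbia rose by 1.23 and 1.22. Nfkbia measured 10.11, 9.92 and 9.61 in I30R60 hearts, all above the 8.76, 8.47 and 8.74 of I30 hearts (adjusted p = 9.15e-05). Tnip3, a partner of A20, rose by 1.18. Without I30R60 replicate 1 the list held 8 rises.

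Some cytokine and chemokine genes rose, with wide spread between hearts, and most of the chemokine genes measured were not called. Cxcl10, which draws activated T cells, measured 7.51, 6.59 and 5.90 in I30R60 hearts and 3.84, 3.65 and 4.05 in I30 hearts (2.82 ± 0.36, adjusted p = 6.81e-05). Ccl3, which draws monocytes and other leukocytes, stood at 9.46, 8.77 and 8.40 in I30R60 hearts and at 6.21, 6.58 and 6.36 in I30 hearts (2.49 ± 0.53, adjusted p = 0.00777). Cxcl1, a neutrophil attractant, measured 8.60, 8.29 and 8.15 in I30R60 hearts and 6.66, 6.64 and 5.96 in I30 hearts (1.93 ± 0.33, adjusted p = 0.00121). I30R60 replicate 1 was the highest of its group for all 3 genes. Among the TNF and IL-1 genes, 9 of 18 rose and none fell (median 0.91). Tnfsf9, the ligand of the costimulatory receptor 4-1BB, rose by 1.76 (adjusted p = 0.000973). Il1f9, which encodes IL-36 gamma, rose by 1.08 and Il17ra, the receptor of IL-17A, by 1.02. Tnf measured 7.49, 6.71 and 5.86 in I30R60 hearts and 5.03, 5.02 and 5.03 in I30 hearts, and Il1a measured 4.77, 3.94 and 2.57 in I30R60 hearts and 2.17, 2.28 and 2.14 in I30 hearts. Both rose (1.66, adjusted p = 0.0114, and 1.56, adjusted p = 0.00999), and both calls were lost without I30R60 replicate 1 (adjusted p 0.0782 for Tnf and 0.0611 for Il1a). Of the CXC list 4 of 17 rose, with a median of 0.24, and of the CC list 3 of 19, with a median of 0.47. The CC count was 2 without I30R60 replicate 1, I30R60 replicate 2 or I30 replicate 2.

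Pattern receptors of innate cells were by count the list with the most rises, 12 of 22 with a median of 0.91. The AP-1 (10 of 11) and NF-kB (11 of 18) lists had larger shares. Clec4e encodes Mincle, which senses material from dead cells. It measured 6.34, 5.92 and 5.36 in I30R60 hearts and 3.86, 3.73 and 3.38 in I30 hearts (2.22 ± 0.36, adjusted p = 0.000609). Acod1, the itaconate-making enzyme of activated macrophages, rose by 1.99 (adjusted p = 0.00101), with values of 6.09, 5.62 and 4.59 in I30R60 hearts against 3.37, 3.26 and 3.71 in I30 hearts. Tlr2 stood at 6.83, 6.46 and 6.21 in I30R60 hearts, all above the 5.00, 4.66 and 5.04 of I30 hearts (1.60 ± 0.22, adjusted p = 0.00014). Cd14, the co-receptor for lipopolysaccharide, rose by 1.41 and the adaptor gene Myd88 by 1.11. The count was between 7 and 10 with 1 array left out, 7 without I30R60 replicate 1 and 8 without I30 replicate 2. The first rank was then lost to the Ier, Btg and Zfp36 genes, which kept 11 rises. Interferon response genes rose in 10 of 22 cases, with a median of 0.58. Irf1, a transcription factor of the interferon response, measured 9.53, 9.0 and 8.51 in I30R60 hearts and 7.25, 6.75 and 7.14 in I30 hearts (1.97 ± 0.25, adjusted p = 4.68e-05). The antiviral effector Ifit1 rose by 1.58 (adjusted p = 0.000669), Mx2 by 1.40, Oas1a by 1.37 and Irf8 by 1.32. Here too I30R60 replicate 1 was the highest array, with Ifit1 at 8.25, 7.37 and 6.67 in I30R60 hearts against 5.73, 5.73 and 6.09 in I30 hearts.

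**Figure D3:**
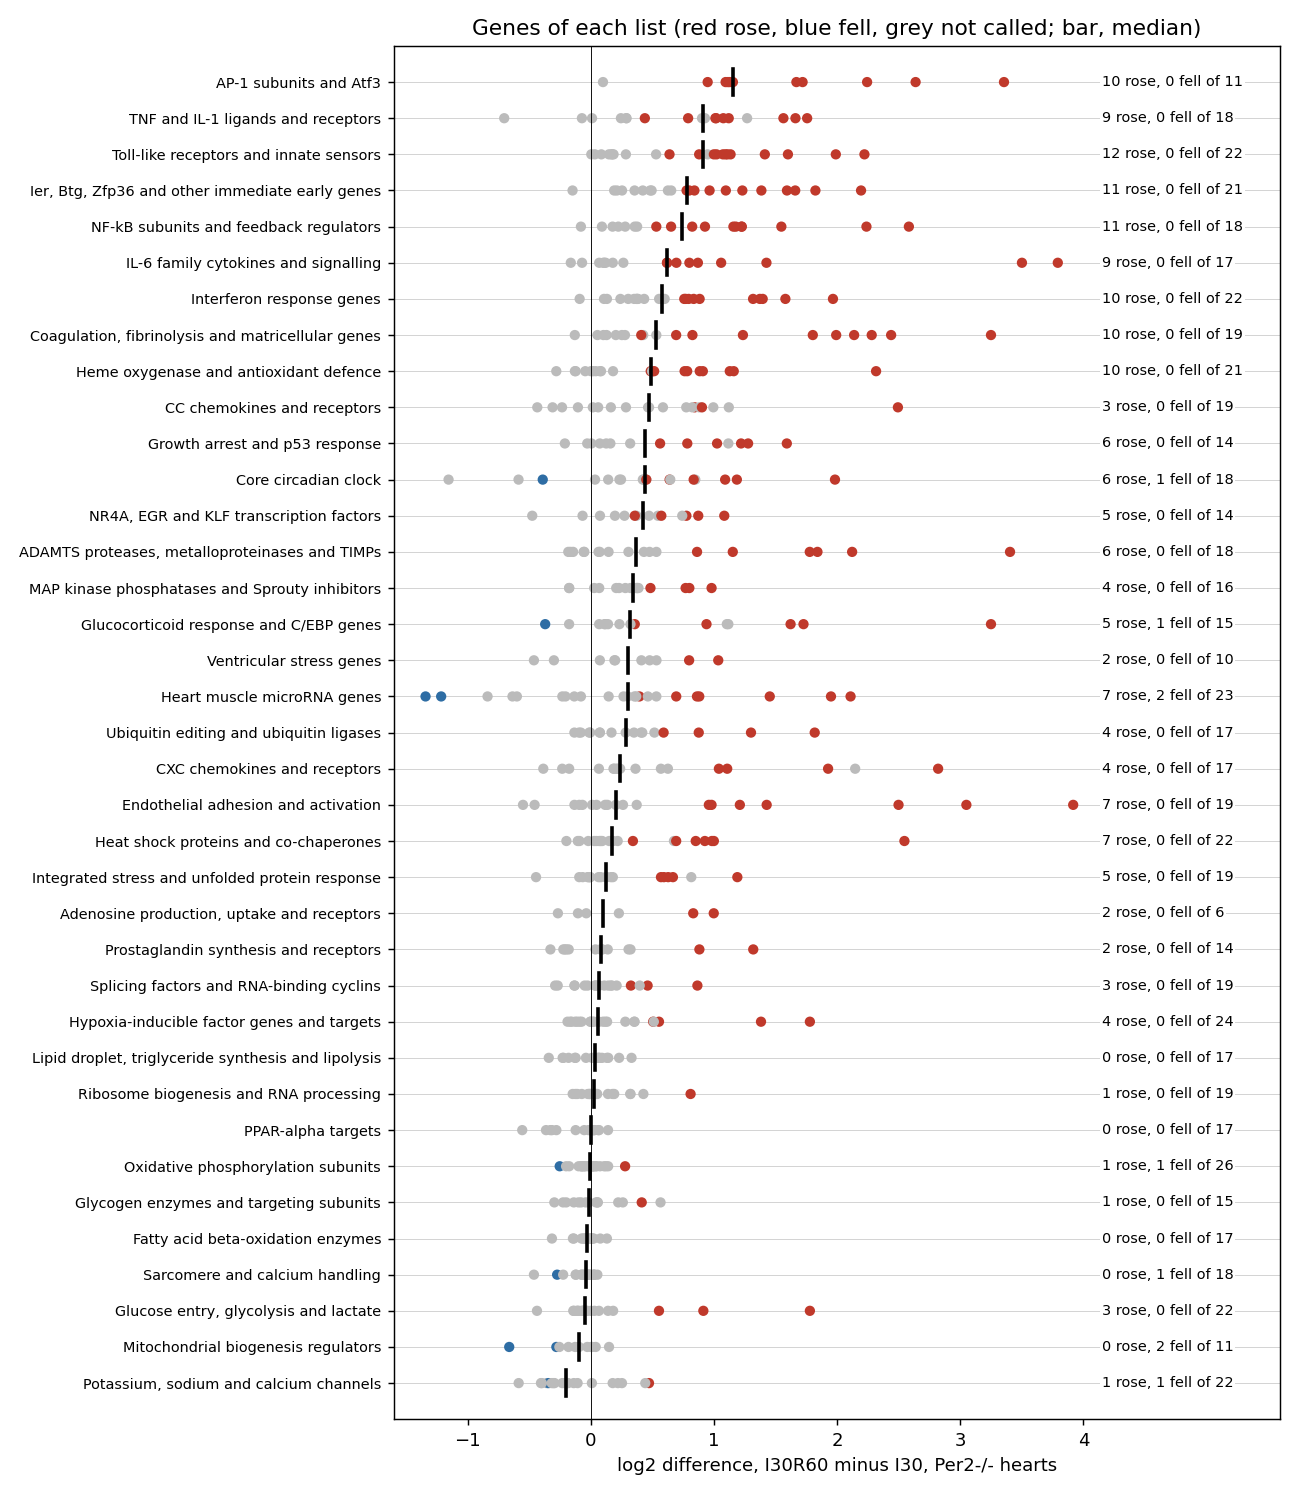
Log2 difference between I30R60 and I30 in Per2-/- hearts for the genes of 37 lists, 1 point per gene, red where the gene rose, blue where it fell and grey where it was not called, with the median as a bar and the counts at the right. The AP-1 list has the highest median, 1.15, and lists of energy metabolism and contraction sit around 0.

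Immediate early transcription factors rose almost without exception in the AP-1 family. In that list 10 of 11 genes rose, with the highest median of any list, 1.15. Fosb measured 11.41, 10.57 and 10.35 in I30R60 hearts and 7.34, 7.70 and 7.22 in I30 hearts (3.35 ± 0.49, adjusted p = 0.000218). Atf3, a stress-induced partner of AP-1, measured 12.05, 11.31 and 11.58 in I30R60 hearts and 8.99, 9.30 and 8.74 in I30 hearts (2.64 ± 0.28, adjusted p = 8.07e-06). Fos rose by 2.24, Maff by 1.72, Jun by 1.67 and Jund by 1.15. Among the Ier, Btg and Zfp36 genes 11 of 21 rose (median 0.78), and this count was the same without each of the 6 arrays in turn. Myc, a growth-promoting transcription factor, measured 9.08, 8.75 and 8.88 in I30R60 hearts and 6.29, 6.93 and 6.92 in I30 hearts (2.19 ± 0.29, adjusted p = 8.44e-05). Ier5 rose by 1.82, Ier3 by 1.66, Arc by 1.59, Csrnp1 by 1.38 and Zfp36, whose protein destabilizes AU-rich mRNAs such as that of Tnf, by 1.23. The NR4A, EGR and KLF list was less uniform, with 5 of 14 genes higher and a median of 0.42. Egr1 rose by 0.57 (adjusted p = 0.00441) and Klf6 by 0.87, and the count was 2 without I30R60 replicate 1, I30 replicate 2 or I30 replicate 3, and 3 without I30R60 replicate 2 or 3. Of the MAP kinase phosphatases and Sprouty inhibitors 4 of 16 rose, led by Dusp5, a nuclear phosphatase of ERK, at 0.98, and 2 rose without I30R60 replicate 1, I30R60 replicate 3 or I30 replicate 3.

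Protein stress genes rose in part. Dnajb1, the HSP40 co-chaperone of the heat shock response, measured 9.72, 8.70 and 9.14 in I30R60 hearts and 6.81, 6.77 and 6.34 in I30 hearts, a rise of 2.55 ± 0.26 (adjusted p = 7.35e-06). Hspb1, the small heat shock protein HSP27, stood at 11.79, 11.29 and 11.80 in I30R60 hearts and at 10.56, 10.77 and 10.78 in I30 hearts (0.93 ± 0.17, adjusted p = 0.00166). Dnajb4 rose by 0.69. In all 7 of 22 heat shock genes rose, but the median was 0.17 and the count fell to 3 without I30R60 replicate 1 or I30 replicate 2 and to 4 without I30R60 replicate 3, I30 replicate 1 or I30 replicate 3. It was also 4 with the arrays scaled to a common interquartile range. In the integrated stress and unfolded protein response 5 of 19 rose, with a median of 0.12. Ppp1r15a, the phosphatase subunit that restores translation (also known as Gadd34), rose by 1.19 ± 0.16 (adjusted p = 0.000105), and Atf4 by 0.63. That count was 2 without I30R60 replicate 3 or I30 replicate 2 and 3 without I30R60 replicate 1, I30 replicate 1 or I30 replicate 3. Growth arrest genes rose in 6 of 14 cases, and in 3 without I30 replicate 1 or 4 without I30R60 replicate 1 or 2. Gadd45g measured 9.58, 9.32 and 9.62 in I30R60 hearts and 7.76, 8.24 and 7.75 in I30 hearts (1.59 ± 0.22, adjusted p = 0.00014). Trp53inp1, a p53 target, rose by 1.28 and Gadd45a by 1.02.

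Antioxidant and matrix genes rose as well. Hmox1, the heme-degrading enzyme that answers oxidative stress, measured 8.71, 8.15 and 8.33 in I30R60 hearts and 5.92, 6.22 and 6.10 in I30 hearts (2.32 ± 0.35, adjusted p = 0.00038). The metal-binding protein gene Mt1 stood at 11.29, 11.25 and 11.33 in I30R60 hearts and at 10.03, 10.34 and 10.12 in I30 hearts (1.13 ± 0.16, adjusted p = 0.00014). Gclc, which makes the first step of glutathione synthesis, rose by 0.88 and Srxn1, sulfiredoxin, by 0.78. In the list 10 of 21 genes rose (median 0.49), and 6 without I30R60 replicate 2, I30 replicate 2 or I30 replicate 3. Adamts4, a protease that cleaves the proteoglycans aggrecan and versican, measured 8.11, 7.30 and 8.01 in I30R60 hearts and 4.62, 4.36 and 4.23 in I30 hearts (3.40 ± 0.36, adjusted p = 7.51e-06). Timp1, an inhibitor of metalloproteinases, rose by 1.84 ± 0.25 (adjusted p = 0.000111), Adamts1 by 1.78 ± 0.16 (adjusted p = 1.68e-06) and Adamts9 by 1.15. The proteases and inhibitors gave 6 rises among 18 genes. Among coagulation, fibrinolysis and matricellular genes 10 of 19 rose (median 0.53). Plaur, the urokinase receptor, rose by 2.44 (adjusted p = 9.15e-05), and Ptx3, a soluble pattern receptor, by 2.28 (adjusted p = 0.00131). Has1, a hyaluronan synthase, rose by 1.99 and Sphk1, which makes sphingosine 1-phosphate, by 1.80.

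The largest rises outside these lists were Rnd1 and Eid3. Rnd1 measured 8.61, 7.65 and 7.61 in I30R60 hearts and 5.09, 4.64 and 4.74 in I30 hearts (3.13 ± 0.32, adjusted p = 6.13e-06). Eid3 measured 7.35, 6.59 and 7.24 in I30R60 hearts and 4.21, 4.05 and 4.72 in I30 hearts, where it was below the sham mean of 5.16 (2.74 ± 0.28, adjusted p = 7.35e-06). Smaller sets with few calls were adenosine handling, in which Entpd1, the CD39 ectonucleotidase that breaks down extracellular ATP, rose by 0.83 ± 0.12 (adjusted p = 0.000246), and ubiquitin editing, in which Otud1 rose by 1.82 and Trib1 by 1.3 among 4 of 17. Nop58, a protein of small nucleolar ribonucleoproteins, was the 1 riser of 19 ribosome biogenesis genes, at 0.81, and Ccnl1, a cyclin tied to splicing, rose by 0.86. Xirp1, a protein of the intercalated disc, rose by 1.03.

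Neutrophil transcripts rose in the reperfused Per2-/- hearts. Of 13 neutrophil markers 6 rose and none fell, with a median of 1.00. Their mean log2 intensity per array ran between 4.24 and 4.94 in I30R60 hearts, against 3.56 and 3.60 in I30 hearts and 3.13 and 3.52 in sham hearts. Retnlg, a resistin-like protein of mouse neutrophils, measured 6.71, 6.21 and 6.95 in I30R60 hearts and 4.54, 4.12 and 3.64 in I30 hearts (2.53 ± 0.50, adjusted p = 0.00379). Mmp8, the neutrophil collagenase, rose by 2.12, and the calprotectin genes S100a8 and S100a9 rose by 1.62 and 1.49. Trem1, an activating receptor of myeloid cells, rose by 1.00. Clec4d rose by 1.13 (adjusted p = 0.0387), a call lost without each of the 6 arrays, at adjusted p up to 0.118. The 7 markers not called, named after their values were seen, were Ngp (1.31), Il1r2 (0.90), Cxcr2 (0.57), Ltf (0.29), Csf3r (0.27), Mmp9 (0.14) and Camp (-0.12). The granule genes Camp and Ltf stood at 3.32 and 3.15 in I30R60 hearts against 3.44 and 2.86 in I30 hearts. These levels were below the median of all values of 4.44, as was Trem1 at 3.64 and 2.65. Csf3r stood at 4.47 and 4.19. Lcn2, an iron-scavenging protein that neutrophils and stressed tissue both make, measured 8.34, 8.67 and 9.32 in I30R60 hearts and 5.76, 5.44 and 5.39 in I30 hearts (3.25 ± 0.46, adjusted p = 0.00015). Serpina3n, a serine protease inhibitor of the acute phase, stood at 9.20, 9.03 and 9.33 in I30R60 hearts and at 7.13, 6.94 and 7.08 in I30 hearts (2.14 ± 0.35, adjusted p = 0.000666). In whole tissue, more cells of a type and more RNA per cell cannot be told apart. The part of the neutrophil transcripts in the rise of the innate and chemokine genes was not tested.

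The other cell type markers had few calls. The 11 cardiomyocyte markers averaged between 12.66 and 12.74 per array in I30R60 hearts and between 12.73 and 12.75 in I30 hearts, and none was called, so that heart muscle genes were at high levels in every array. Macrophage markers averaged between 7.04 and 7.31 in I30R60 hearts, against 6.78 and 6.92 in I30 hearts and 7.0 and 7.12 in sham hearts, and 1 of 13, C1qb, rose (0.42), a call lost without I30 replicate 2 (adjusted p = 0.0666) or I30R60 replicate 2 (0.0633). The macrophage list had a median of 0.42. For 9 of its markers all I30R60 arrays lay above all I30 arrays and for 1 below, against 10.8% and 13% of all genes. Fibroblast markers had 1 rise of 12, Postn, a matricellular protein of activated fibroblasts, at 0.82 (adjusted p = 0.00721). Their median was 0.15. Fibroblast means per array ran between 8.11 and 8.18 in I30R60 hearts, against 7.87 and 8.02 in I30 hearts and 8.05 and 8.41 in sham hearts. The lymphocyte, platelet, red blood cell, smooth muscle, atrial, fat and skeletal muscle lists had no call. Wt1 was the 1 riser of 8 mesothelial markers, at 0.95. Of 12 lung epithelial markers Scgb3a1 rose by 0.60 (adjusted p = 0.0297), a gene picked after its values were seen whose call was lost without any array but I30 replicate 3, at adjusted p up to 0.151.

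**Figure D4:**
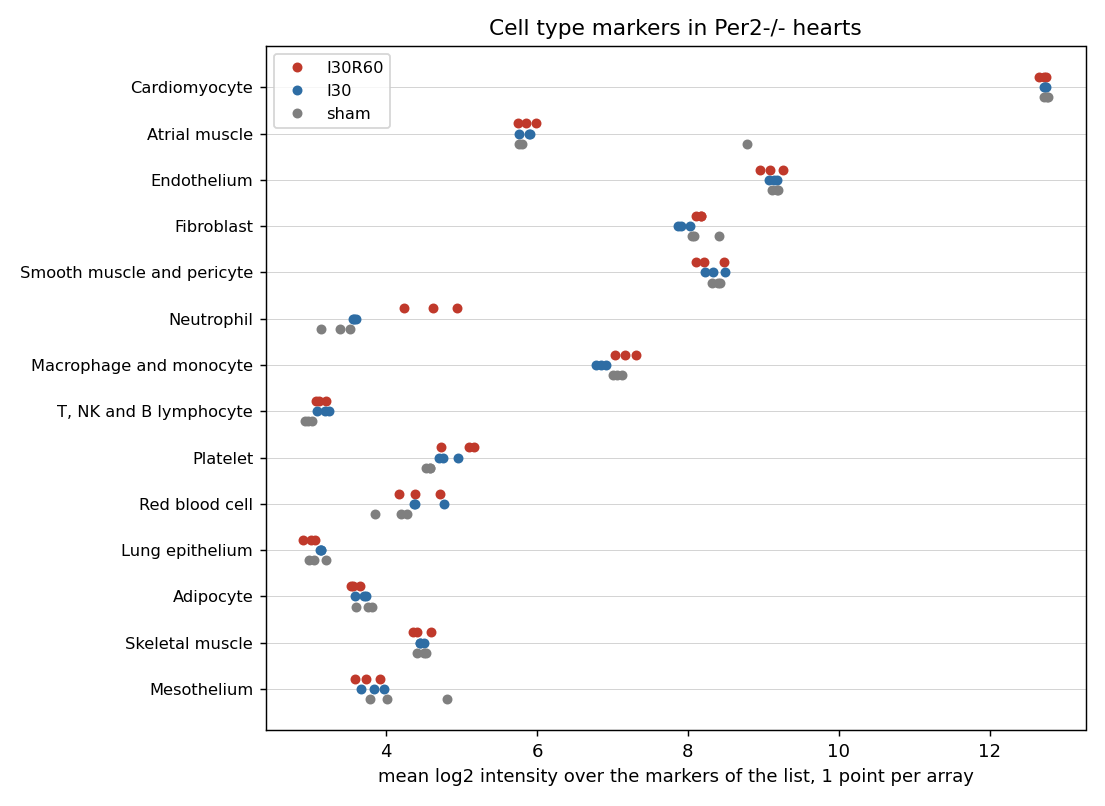
Mean log2 intensity over the markers of 14 cell types, 1 point per Per2-/- array, for I30R60 (red), I30 (blue) and sham (grey) hearts. Neutrophil markers run between 4.24 and 4.94 in I30R60 hearts and lie apart from the 3.56 to 3.60 of I30 hearts. One sham array stands out for atrial muscle, at 8.79.

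Clock genes changed in these Per2-/- hearts. Of 18 measured, 6 rose and 1 fell, with a median of 0.44. Ciart, a repressor of CLOCK and BMAL1, measured 7.07, 7.24 and 7.0 in I30R60 hearts and 5.06, 5.09 and 5.22 in I30 hearts, and the sham mean of 5.79 lay between them. It rose by 1.98 ± 0.35 (adjusted p = 0.00136). Bhlhe40, a repressor that binds E-boxes, stood at 8.69, 8.45 and 8.62 in I30R60 hearts and at 7.42, 7.44 and 7.34 in I30 hearts (1.19 ± 0.17, adjusted p = 0.000161). Nfil3, a repressor of D-box genes, rose by 1.09 and Cry1, the repressor that partners PER proteins, by 0.83 (adjusted p = 0.00893 and 0.00311). Csnk1d, the kinase that marks PER proteins for degradation, rose by 0.45. Cry2 rose by 0.64, but not without I30 replicate 2 or 3 (adjusted p 0.116 and 0.107) or I30R60 replicate 2 or 3 (0.101 and 0.117). Clock, picked after its values were seen as the 1 gene that fell, changed by -0.39 (adjusted p = 0.0238), a call lost without I30R60 replicate 2 or 3 (0.104 and 0.0574) or I30 replicate 2 or 3 (0.0738 and 0.0818). Arntl, which encodes BMAL1 and was picked in the same way, measured 5.72, 5.09 and 5.12 in I30R60 hearts and 6.57, 6.47 and 6.34 in I30 hearts, a difference of -1.16 ± 0.39 that missed the threshold (adjusted p = 0.0958). In the glucocorticoid and C/EBP list 5 of 15 rose and 1 fell. Cebpd, a transcription factor of the acute phase, rose by 1.62 ± 0.17 (adjusted p = 8.07e-06), while the rise of Fkbp5 by 1.73 (adjusted p = 0.0245) was lost without any of the arrays but I30R60 replicate 1, at adjusted p up to 0.0881. That list held 2 rises without I30 replicate 1 or 2 and 3 without any of the other 4 arrays.

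Energy metabolism and contraction showed few calls. No gene of the PPAR-alpha targets (17 genes, median -0.0012), the fatty acid beta-oxidation enzymes (17, median -0.03) or the lipid droplet list (17) was called. With the arrays scaled to a common interquartile range the medians were -0.17 for the PPAR-alpha targets and -0.18 for the enzymes, and 1 PPAR-alpha target and 1 lipid droplet gene fell. Among the PPAR-alpha targets Fabp3, the fatty acid binding protein of heart muscle, differed by 0.0023 (adjusted p = 0.993), and Acadm, medium-chain acyl-CoA dehydrogenase, which is also in the enzyme list, by -0.0003 (adjusted p = 0.999). Of 26 oxidative phosphorylation subunits Ndufa1 rose by 0.28 and Ndufc1 fell by 0.25, both complex I subunits, and neither call survived the removal of most single arrays (adjusted p up to 0.158 and 0.15). Of 11 regulators of mitochondrial biogenesis none rose and 2 fell. Ppargc1b, a coactivator of mitochondrial genes, measured 6.75, 7.04 and 6.87 in I30R60 hearts and 7.57, 7.61 and 7.47 in I30 hearts (-0.66 ± 0.17, adjusted p = 0.0289), and Polrmt, the mitochondrial RNA polymerase, changed by -0.28 (adjusted p = 0.0463). Ppargc1b was lost without any array but I30R60 replicate 2, at adjusted p up to 0.112, and Polrmt without any but I30 replicate 2, at adjusted p up to 0.196, so that 0 fell in 4 of the 6 settings with 1 array left out. In glucose use 3 of 22 genes rose. Pfkfb3, whose product fructose 2,6-bisphosphate speeds glycolysis, measured 8.12, 7.90 and 7.72 in I30R60 hearts and 6.06, 5.98 and 6.37 in I30 hearts (1.78 ± 0.24, adjusted p = 0.00011). Slc16a3, the lactate exporter MCT4, rose by 0.91 ± 0.16 (adjusted p = 0.0013). Lox, an enzyme that crosslinks collagen and is known as a target of hypoxia-inducible factor, rose by 1.38, and 4 of 24 genes of that list rose, 2 without I30R60 replicate 1, I30R60 replicate 3 or I30 replicate 2. Among 18 sarcomere and calcium handling genes 1 fell, Mybpc3 (-0.27), and it was not called without I30R60 replicate 1 or 2 (adjusted p 0.0881 and 0.108) or I30 replicate 1 or 3 (0.0948 and 0.0598).

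Falls were smaller than rises. Adam19, a membrane metalloprotease needed for heart development in mice, fell most. It measured 6.77, 6.16 and 6.48 in I30R60 hearts and 7.87, 7.81 and 7.86 in I30 hearts, a change of -1.37 ± 0.25 (adjusted p = 0.00164). Zfp418 stood at 3.67, 3.82 and 3.68 in I30R60 hearts and at 5.06, 4.62 and 4.61 in I30 hearts (-1.04 ± 0.17, adjusted p = 0.000798). Zfp11 changed by -1.08 ± 0.17 (adjusted p = 0.00057). Of all 313 genes named Zfp and a number, 24 fell and 5 rose, with a median of -0.14. Over all genes tested 1.71% fell and 3.69% rose, with a median of -0.04. The Zfp genes mostly encode DNA-binding zinc finger proteins, and the set was picked after values were seen. Its falls numbered between 14 and 24 with single arrays left out. In wildtype hearts 13 of the set fell and 8 rose, against 2.25% and 3.24% of all genes. Tmem171 (-1.23), Zfp442 (-1.19) and B3galt2 (-1.16), a galactosyltransferase gene, also fell, each with a call that ended without 1 array, which was I30 replicate 2 (adjusted p = 0.0554), I30 replicate 1 (0.0704) and I30R60 replicate 2 (0.0585). Snai3 (-1.11) and Itgb6 (-1.05) passed with adjusted p of 0.0327 and 0.029. Snai3 was lost without any array but I30 replicate 3 and Itgb6 without any but I30 replicate 3 and I30R60 replicate 1, at adjusted p up to 0.125 and 0.129.

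Few microRNA genes changed, with a share of rises close to that of all genes. The probe sets measure the gene's transcript and do not tell precursor from mature RNA. Of 307 microRNA genes tested 12 rose (3.91%, against 3.69% of all genes) and 3 fell (0.977%, against 1.71%). Mir133a-1 and Mir1a-2, the muscle microRNA genes transcribed together, were among the largest falls. Mir133a-1 measured 4.06, 4.53 and 4.03 in I30R60 hearts and 5.17, 5.64 and 5.84 in I30 hearts (-1.34 ± 0.23, adjusted p = 0.00103). Mir1a-2 measured 2.31, 2.11 and 1.84 in I30R60 hearts and 2.94, 3.48 and 3.49 in I30 hearts (-1.22 ± 0.20, adjusted p = 0.000805), which is below the median intensity of 4.44. The second copies Mir133a-2 (-0.60) and Mir1a-1 (-0.84), picked after their values were seen, were not called.

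The 3 genes of the chromosome 13 cluster, each with 1 mature sequence given above, rose together. Mir24-1 measured 5.46, 5.51 and 5.56 in I30R60 hearts and 3.19, 2.78 and 4.23 in I30 hearts, with a sham mean of 4.82 (2.11 ± 0.28, adjusted p = 0.000105). Mir27b measured 5.80, 5.99 and 5.67 in I30R60 hearts and 3.58, 2.77 and 5.26 in I30 hearts, with a sham mean of 5.56 (1.95 ± 0.55, adjusted p = 0.0417). Mir23b measured 7.46, 7.64 and 7.24 in I30R60 hearts and 5.71, 5.32 and 6.94 in I30 hearts, with a sham mean of 6.91 (1.45 ± 0.37, adjusted p = 0.0225). I30 replicate 3 was the highest array of its group for all 3, near the sham means of Mir27b and Mir23b. Mir27b was called neither without I30 replicate 1 or 2 (adjusted p 0.123 and 0.207) nor without I30R60 replicate 1, 2 or 3 (0.103, 0.111 and 0.0847). Mir23b was not called without I30 replicate 1 or 2 (0.0879 and 0.128) or I30R60 replicate 1 or 2 (0.0672 and 0.0763). Mir27a, with the Mir27b seed, rose by 0.86, a call lost without I30R60 replicate 1 or 3 (0.172 and 0.0768) or I30 replicate 1 or 2 (0.0661 and 0.154). Mir30a and Mir30c-2, with 1 seed between them, rose by 0.88 and 0.99, and Mir30a was lost without I30 replicate 1 (0.0795) or I30R60 replicate 2 (0.0678).

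The motifs shown above were counted in the RefSeq promoter windows, from 250 bases before to 50 after the start, on both strands. A window was found for 14739 of the genes, of which 527 rose, 150 of them at least 2-fold, and 248 fell. The NF-kB motif was in 11.6% of the genes that rose and 18% of those that rose at least 2-fold, against 4.84% of those that fell and 5.77% of all. The E-box CACGTG was in 15% of the genes that rose and 14% of those that rose at least 2-fold, against 11.7% of those that fell and 9.57% of all. The STAT motif TTCNNNGAA was in 12.5% of the genes that rose and 16% of those that rose at least 2-fold, against 7.66% of those that fell and 9.06% of all. The AP-1 motif TGANTCA was in 10.6% of the genes that rose and 11.3% of those that rose at least 2-fold, against 7.26% of those that fell and 7.92% of all. The cyclic AMP response element TGACGTCA was in 5.12% of the genes that rose and 4% of those that rose at least 2-fold, against 2.42% of those that fell and 2.77% of all. The heat shock element was in 0.38% of the genes that rose, 0 of the 150 that rose at least 2-fold and 0.583% of all. The CArG box was in 1.9% of the genes that rose, 0.667% of those that rose at least 2-fold and 1.64% of all. A gene was counted once for a motif however often it held it, and matches of different motifs could overlap. Genes that rose had more than 1 window in 19.5% of cases, against 17.1% of all genes. A match is a run of letters and not a measured binding site, and the shares carry no test.

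Many of the same genes moved when reperfusion was added in wildtype hearts. There 609 genes were higher (3.24%) and 424 lower (2.25%) in I30R60 than in I30 hearts, which is 1033 in all (5.49%). The wildtype count moved with the scaling of the arrays, and was 564 after quantile normalization. The interquartile range of an array, in log2 units, lay between 3.95 and 4.03 in Per2-/- I30R60 hearts, against 3.85 and 3.98 in Per2-/- I30 hearts. It lay between 4.04 and 4.06 in wildtype I30R60 hearts, against 3.76 and 3.87 in wildtype I30 hearts. The genotypes shared 297 rises, which were 42.8% of those in Per2-/- hearts and 48.8% of those in wildtype hearts, and 27 falls, which were 8.39% of those in Per2-/- hearts and 6.37% of those in wildtype hearts. Fosb rose by 3.35 in Per2-/- hearts and 3.46 in wildtype hearts. Atf3 rose by 2.64 in Per2-/- hearts and 2.45 in wildtype hearts, Dnajb1 by 2.55 in Per2-/- hearts and 2.87 in wildtype hearts, and Mir24-1 by 2.11 in Per2-/- hearts and 2.31 in wildtype hearts. Mir1a-2 changed by -1.22 in Per2-/- hearts and by -1.36 in wildtype hearts. The AP-1 list held 10 rises in Per2-/- hearts and 9 in wildtype hearts, the NF-kB list 11 in Per2-/- hearts and 7 in wildtype hearts, and the interferon list 10 in Per2-/- hearts and 3 in wildtype hearts. The innate receptors had 12 rises in Per2-/- hearts and 3 in wildtype hearts, and the neutrophil markers 6 rises in Per2-/- hearts and, in wildtype hearts, 0 rises and 1 fall. For each of the 6 neutrophil markers that rose in Per2-/- hearts, the I30 mean was higher in wildtype hearts, by little for Clec4d and Trem1. S100a8 had I30 means of 4.84 in wildtype and 3.89 in Per2-/- hearts, and I30R60 means of 5.26 and 5.52. Trem1 had I30 means of 2.77 in wildtype and 2.65 in Per2-/- hearts, and I30R60 means of 2.95 and 3.64. Other lists had more rises in wildtype hearts: the NR4A, EGR and KLF list 5 in Per2-/- hearts and 9 in wildtype hearts, the Ier, Btg and Zfp36 list 11 in Per2-/- hearts and 16 in wildtype hearts, the MAP kinase phosphatases and Sprouty inhibitors 4 in Per2-/- hearts and 6 in wildtype hearts, and ribosome biogenesis 1 in Per2-/- hearts and 5 in wildtype hearts. Whether such counts differ between the genotypes was not tested.

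The difference between the genotypes in the size of this step passed the test for 0 genes of 18820 (0%), with 1853 at an unadjusted p under 0.05 in limma and 0 by an ordinary linear model with the same adjustment. Simulated differences between the genotypes were found in 68% of cases where they were 2-fold and in 86% where they were 3-fold. The simulation held 50 changed genes at each size from 1.5-fold to 4-fold, which eases the adjusted threshold. These shares can therefore be too high where few genes differ. The smallest p values belonged to 4933409K07Rik, Lcn6, Icam1, Polr3a and Ramp3, none of which passed. Icam1 rose by 3.05 in Per2-/- hearts and had a difference of 0.72 (adjusted p = 0.155) in wildtype hearts, which leaves 2.33 ± 0.41 between them (adjusted p = 0.0977). Ramp3, an accessory protein of the adrenomedullin receptor, differed by 1.32 in Per2-/- hearts and 0.23 in wildtype hearts (1.09 ± 0.20, adjusted p = 0.104). The wildtype I30 hearts were spread widely for several of these genes. Icam1 measured 7.85, 7.74 and 8.60 in wildtype I30R60 hearts and 7.62, 7.70 and 6.71 in wildtype I30 hearts. Selp measured 7.18, 6.98 and 7.20 in wildtype I30R60 hearts and 6.59, 5.87 and 3.82 in wildtype I30 hearts. The neutrophil gene Retnlg measured 6.89, 4.84 and 5.59 in wildtype I30R60 hearts and 7.22, 5.87 and 4.67 in wildtype I30 hearts, and the lung epithelial gene Sftpc, picked after its values were seen, 2.93, 2.90 and 2.99 in wildtype I30R60 hearts against 6.72, 5.49 and 4.22 in wildtype I30 hearts. In Per2-/- hearts Sftpc stood at 2.94, 2.59 and 2.77 in I30R60 hearts and 3.44, 3.24 and 3.30 in I30 hearts. For all 4 genes wildtype I30 replicate 3 was the lowest of its group, and without it 12 genes differed between the genotypes, among them Icam1 (2.65 ± 0.39, adjusted p = 0.00841), Selp (3.03 ± 0.43, adjusted p = 0.00785), Serpina3n (2.46 ± 0.28, adjusted p = 0.00106) and Sftpc (2.61 ± 0.34, adjusted p = 0.00332). Leaving out the lowest array raises the wildtype I30 mean of Icam1, Selp, Retnlg and Sftpc and so widens their difference. Calls among these genes in that setting are therefore no separate support for a difference. The wildtype values of Serpina3n are not given here. Its call too depended on leaving out 1 array, and it is not taken as separate support either. Without any other single array the test passed for between 0 and 2 genes. The part of the lung and neutrophil transcripts in these differences was not tested.

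**Figure D5:**
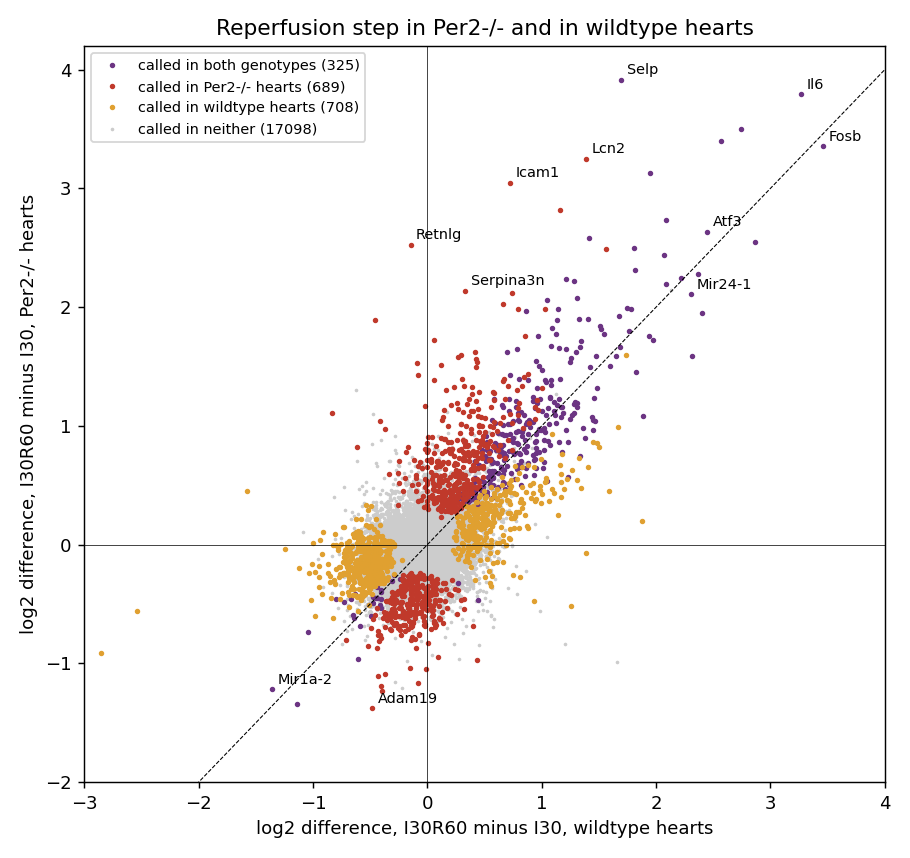
Log2 difference between I30R60 and I30 in Per2-/- hearts (vertical axis) against the same difference in wildtype hearts (horizontal axis), 1 point per gene, coloured by the genotype in which it was called, with the line of equal change dashed. Fosb, Atf3 and Mir24-1 lie near the line, and Selp, Icam1, Lcn2 and Retnlg lie above it, although no gene passed the test of the genotype difference.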

How the data were processed

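The authors hybridised left ventricular RNA to Affymetrix Mouse Gene ST 1.1 arrays, and the deposited table holds log2 intensities after RMA, made in Partek Genomics Suite 6.6 per the methods and the labels. RMA includes a normalization between arrays, which can remove shifts of all transcripts, but the deposited arrays still differed in interquartile range. Of 35555 probe sets 21218 were paired with 1 gene symbol, and the one with the highest mean over 24 arrays stood for each of 18820 genes. A linear model with a mean for each of 8 groups was fitted in limma 3.58.1 (R 4.3.3) to the 24 arrays, with Benjamini-Hochberg adjustment over all genes. SE is the standard error of this fit. The methods give 3 animals per condition for the study in general, and the labels do not tie the arrays of a group to separate mice, so p-values measure the spread between these samples, and their number limits the precision. On simulated data the Per2-/- contrast found 68% of 1.5-fold and 100% of 2-fold changes. This simulation too held 50 changed genes at each size, and each gene had the same spread in all groups. These shares can therefore be too high for genes with an uneven spread. In the data, differences over 2-fold such as those of Cxcl2 (2.15, adjusted p = 0.0645 in limma) and Ccl7 (1.12, adjusted p = 0.108) were not called. Named were Per2, the 15 largest rises and 10 largest falls among called genes whose groups did not overlap, and up to 6 microRNA genes. Up to 6 called members of a list and the 5 smallest p for the genotype difference were named as well. Where fewer than 2 were called, the 2 brightest were added for the PPAR-alpha, beta-oxidation and sarcomere lists, and not for other lists. Genes, lists and comparisons were chosen with earlier results of these data known. Alternatives changed the normalization, filter, probe set rule, test, threshold, block and arrays. Array settings that leave out 4 arrays with high Myl7, an atrial gene, were added after seeing the data. Promoter and microRNA sequences are RefSeq's (GRCm38.p6). The NF-kB, heat shock and CArG motifs were searched by their usual consensus.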

Additional observations from a re-analysis of the deposited data

Results flagged for a closer look

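Probe sets that the annotation used here does not pair with 1 gene symbol lie outside the comparison by gene. In a limma fit over all 35555 probe sets, 115 of these 14337 probe sets were higher in I30R60 than in I30 Per2-/- hearts and 64 were lower, at an adjusted p under 0.05. They were not named here. Each array of the groups compared was left out in turn, but no array was tested as an outlier.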

How the results depend on the processing

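The 1016 calls in Per2-/- hearts became 493 with the 6 arrays alone, 215 with a 2-fold minimum, 420 at an adjusted p under 0.01, and between 620 and 799 with 1 array left out (620 without I30 replicate 2, 635 without I30R60 replicate 1). The methods' t-test gave 2868 unadjusted and 3 after Benjamini-Hochberg. The 1033 wildtype calls became 221 with 6 arrays, 564 after quantile normalization, 2894 (448 higher, 2446 lower, median of all genes -0.11) with a common interquartile range, 145 and 335 at the stricter thresholds, 2677 and 0 by the methods' t-test, and between 495 and 812 with 1 array left out (495 without wildtype I30R60 replicate 1, 653 without replicate 3). The genotype difference passed for 1 gene with trend and robust variances, 1 with the common range, 7 with a low-intensity filter and between 0 and 12 with 1 array left out, and 1497 were under 0.05 unadjusted in the ordinary linear model. The share of rises in Per2-/- hearts was 74.2% after median centring, 62.7% after quantile normalization and 55.7% with the common range. Why the counts moved was not tested, except that fewer arrays or stricter thresholds pass fewer genes. Replicate numbers were not taken as pairs in the groups compared: same-numbered deviations correlated between -0.0291 and 0.0497 for I30R60 and I30 in Per2-/- hearts, between -0.0206 and 0.0534 in wildtype hearts and, between genotypes, between -0.0224 and 0.0819 for I30R60 and -0.0685 and 0.0234 for I30. Among other pairs of groups every r was over 0.1 only for Per2-/- I30 with wildtype sham (0.1154 to 0.1813). The replicate block gave 996 calls as a fixed and 992 as a random term in Per2-/- hearts, 1060 and 999 in wildtype hearts and 0 for the genotype difference. Of 166 named genes called, all kept their sign and 106 their call without each of the 6 arrays, while 48 lost it with the 6 arrays alone, 165 by the methods' adjusted t-test and 19 with the common range. Signs turned only for uncalled genes near 0: Acadm was 0.0198 after centring, 0.0165 after quantile normalization and -0.0492 to 0.0323 with 1 array left out, Etfb 0.0069, 0.01 and -0.0286 to 0.0113, Tnnt2 0.0148 after quantile normalization, Fabp3 -0.1795 with the common range, -0.0047 with probe sets averaged and -0.0276 to 0.0228 with 1 array left out, Hadh -0.0595 to 0.0015, and Actc1 -0.1733 with the common range and -0.0027 to 0.0783. Genes near the array's floor, such as Mir1a-2, have compressed differences.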
